A study of Mus musculus with 1528 samples.

Results

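The 9 genes described here handle iron and heme in macrophages: Hmox1, Blvrb, Slc48a1, Alas1, Slc40a1, Tfrc, Slc11a1, Fth1 and Ftl1. They were taken by symbol from a table of 55421 genes, as a list drawn up with earlier results of these data known, and all 9 were present and passed the filter on low values that left 17034 genes to test. The cells were macrophages (BMDMs) grown from the bone marrow of wild-type C57BL/6 mice (C57BL/6J in the study's methods) with M-CSF (CSF1) and stimulated for 24 h with IL4 and IL13 or with IL4, IL13 and TNF, each cytokine at 10 ng/ml. CSF1, IL4 and IL13 were thus shared by both groups, and no unstimulated cells or cells with TNF alone were analysed here. Live single cells of 2 mice were sorted into 4 plates (plates 2 and 3 for mouse 1, plates 4 and 5 for mouse 2) and sequenced by a Smart-seq2 protocol without molecular identifiers. On each plate the IL4+IL13 cells lay in rows A to H and the IL4+IL13+TNF cells in rows I to P, so position on the plate and treatment cannot be told apart.

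Of 1524 wells (768 with IL4+IL13 and 756 with TNF added), 1386 were kept, 333 to 357 for each mouse and treatment, with a median of 472320 fragments per cell. The median number of genes detected per kept cell was 7874 and 7431 with IL4+IL13 in mouse 1 and 2, and 8161 and 7859 with TNF. How the share of cells with a fragment differed over all genes was not computed, so the shares given below have no background. The cells of a mouse and treatment were added up to 4 sums of 162260282 to 179757666 fragments, and the mouse was the replicate (n = 2). Cells of 1 mouse share an animal and are not replicates. The mouse is the number 1 or 2 that the sample titles give both treatments, in a series described as coming from 2 mice. The 7 macrophage markers summed to 14814 and 16451 CPM (counts of a gene per 1e6 fragments of the sum) with IL4+IL13 and to 28154 and 27008 CPM with TNF, mostly through the lysozyme gene Lyz2, which ran from 11432 to 24837 CPM over the 4 sums. Adgre1 (686 to 896 CPM), Csf1r (830 to 1348), Cd68 (1202 to 1410) and Itgam (166 to 282) varied less. The scarcer markers Mertk (6.41 to 32.4 CPM) and Fcgr1 (19.998 to 68.4) varied more than Lyz2 relative to their level. Erythroid markers, the globins and the erythroid enzyme Alas2 among them, summed to 0.228 to 2.12 CPM, and all 10 that were in the table were under 1 CPM. The summed markers of neutrophils (6.95 to 13.5 CPM), dendritic cells (8.30 to 15.5), fibroblasts (0.587 to 2.02), lymphocytes (1.96 to 3.49), mast cells and basophils (0.186 to 0.694) and megakaryocytes (30.8 to 67.7) were also low, and their part in the results was not tested.

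Macrophages recycle the iron of the body. Heme from engulfed red cells leaves the phagolysosome through HRG1, the product of Slc48a1, and is opened by heme oxygenase-1 (Hmox1), which releases iron, carbon monoxide and biliverdin. BLVRB is a biliverdin reductase, while ALAS1 makes the precursor at the start of heme synthesis outside red cell precursors. Freed iron is stored in ferritin, a shell of heavy (Fth1) and light (Ftl1) chains, or exported by ferroportin (Slc40a1). Transferrin-bound iron enters through the transferrin receptor (Tfrc), and NRAMP1 (Slc11a1) moves metal ions out of the phagosome. The iron regulatory proteins bind stem-loops called iron-responsive elements when iron is scarce, which holds back translation from an element at the start of an mRNA and protects the mRNA from an element at its end.

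Matches to such elements in the 9 transcripts are shown first. They come from a search of letters and pairing, and whether the control acts on any transcript in these cells was not tested. The untranslated regions (UTRs) of GENCODE M21 (build GRCm38) were searched for the letters CNNNNNCAGTGN, with the 5 bases between the bulged C and the loop paired (A with T, G with C or G with T) to the 5 bases after the loop. Pairing below the bulged C was not required. A match was found in the 5′ UTR of 0.137% of 20509 genes and in the 3′ UTR of 0.604% of 20845 genes. It was found in 4 of the 9 genes, once each in the 5′ UTR of Fth1 (chr19:9982733-9982759, plus strand), Ftl1 (chr7:45459780-45459806, minus strand) and Slc40a1 (chr1:45925466-45925492, minus strand), and at 4 sites in the 3′ UTR of Tfrc. The Tfrc sites lie on the plus strand of chromosome 16 at chr16:32631220-32631246, chr16:32631599-32631625, chr16:32631664-32631690 and chr16:32631711-32631737. All 7 are exonic, are written 5′ to 3′ as DNA, and have the 6 bases of the loop in capitals.
Fth1: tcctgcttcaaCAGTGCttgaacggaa
Ftl1: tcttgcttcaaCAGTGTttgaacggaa
Slc40a1: aacttcagctaCAGTGTtagctaagtt
Tfrc, site 1: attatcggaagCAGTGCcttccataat
Tfrc, site 2: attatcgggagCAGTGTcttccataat
Tfrc, site 3: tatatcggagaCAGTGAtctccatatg
Tfrc, site 4: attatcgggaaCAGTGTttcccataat
The elements of the ferritin chains were identical at 25 of 27 bases. No match was found in Hmox1, Blvrb, Slc48a1, Alas1 or Slc11a1, which says only that these letters were not in the annotated UTRs.

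RNA levels differed most for Alas1. Alas1, Blvrb and Fth1 were higher with TNF in both mice and passed the test when the 2 cell populations of a mouse were paired. None of the 9 genes passed the unpaired test. The plot of summed levels by plate shows the values behind these statements.

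**Figure D1:**
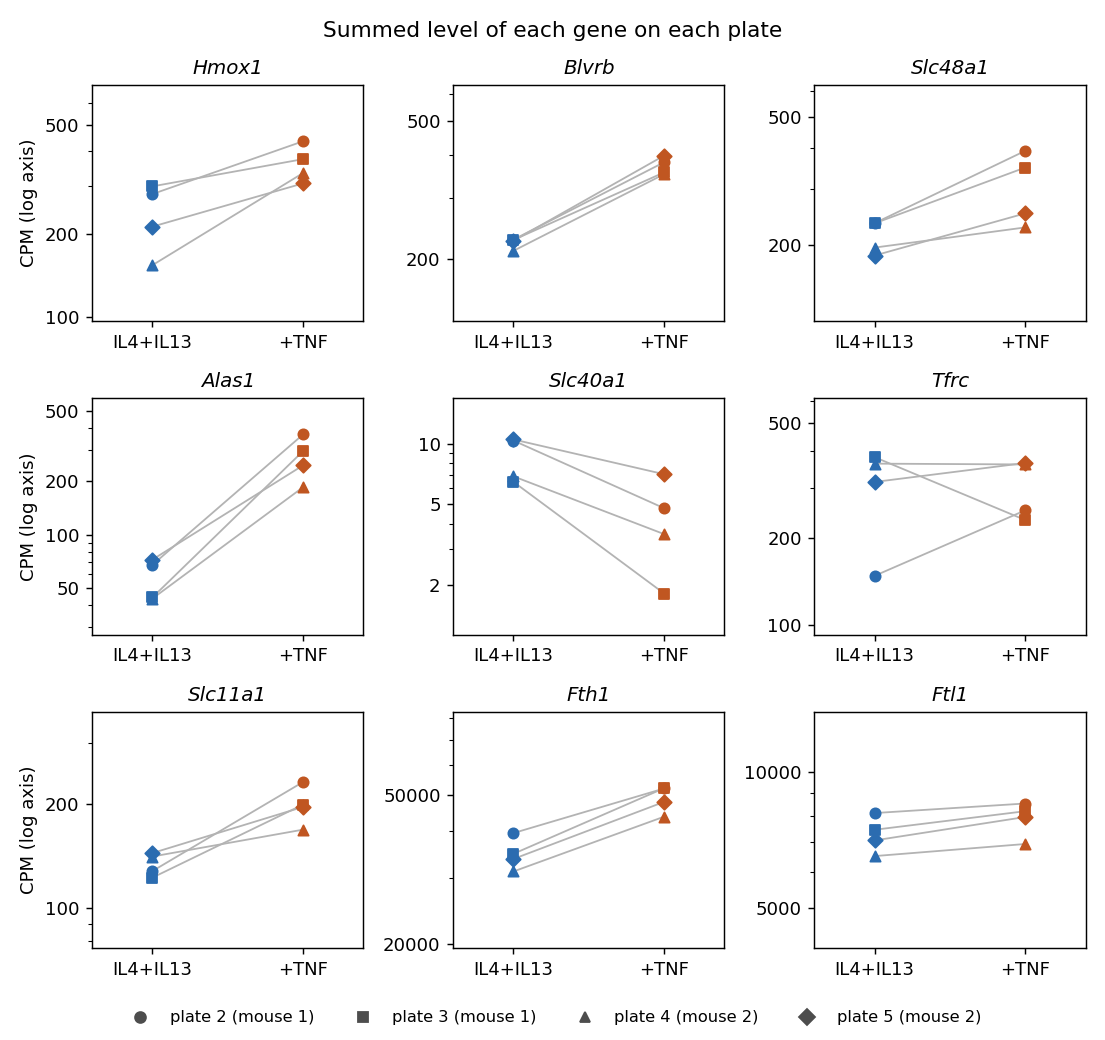
Summed level (CPM) of each of the 9 genes on each of the 4 plates, with IL4+IL13 on the left and IL4+IL13+TNF on the right of each panel; a line joins the treatments of a plate. For Hmox1, Blvrb, Alas1, Slc11a1 and Fth1 the plates with TNF all lie above those without it, Slc40a1 goes down on 4 of 4 plates and Tfrc goes up on 2 and down on 2.

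The test was edgeR's quasi-likelihood test on the 4 sums, with Benjamini-Hochberg adjustment over the 17034 genes at 0.05. Without pairing, 0 of the 9 genes passed, where 0.00587% of all genes (1 gene) did. At an unadjusted p under 0.05 there were 5 of the 9 (Alas1, Blvrb, Fth1, Slc11a1 and Slc40a1) and 8.10% of all genes. With the mouse as a replicate block, 3 of the 9 were higher with TNF against 1.94% of all genes, and 0 of 9 were lower against 1.88%. DESeq2 without the block called Alas1 and Blvrb higher, against 1.79% of all genes, and called none of the 9 lower, against 1.72%. By the sums of the 2 mice alone, the treatments did not overlap for 6 of the 9 genes that were higher (background 18.6% of all genes) and for 1 that was lower (background 17.9%). Over the 4 plates they did not overlap for 5 of the 9, all higher with TNF, against 6.16% of all genes. An exact two-sided permutation test of 2 mice against 2 cannot give a p below 0.333, so none is given for single values.

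**Figure D2:**
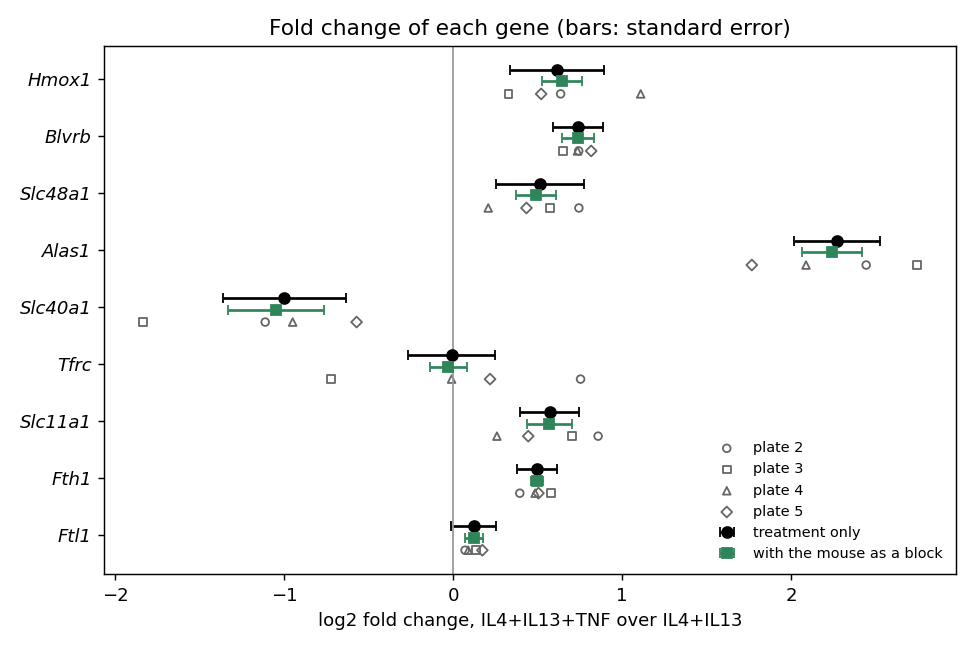
Log2 fold change of each gene, IL4+IL13+TNF over IL4+IL13, from the edgeR fit without pairing and with the replicate block, with bars of 1 standard error. The points are the values of single plates, and plates of the same mouse are not replicates. In the fit without pairing Alas1 stands at 2.27 and the other genes lie between -0.998 (Slc40a1) and 0.74 (Blvrb). The bars are shorter with the block.

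Heme breakdown was represented by Hmox1 and Blvrb. Hmox1 (chr8:75093621-75100589, plus strand, GRCm38) stood at 291 CPM in mouse 1 and 181 CPM in mouse 2 with IL4+IL13, and at 402 and 320 CPM with TNF. Blvrb (chr7:27447978-27466144, plus strand) stood at 228 and 217 CPM with IL4+IL13 and at 367 and 375 CPM with TNF. Neither gene had overlapping treatments, and Blvrb varied less between mice than Hmox1, whose IL4+IL13 values differed by more than 100 CPM.
The log2 fold change of Hmox1 was 0.61 (SE 0.28), a 1.53-fold difference, with an edgeR adjusted p of 0.676, or 0.0578 with the replicate block. That of Blvrb was 0.74 (SE 0.15), a 1.67-fold difference, with an edgeR adjusted p of 0.282, and with the block it passed (0.0250). Within single plates the ratio of TNF over IL4+IL13 ran from 1.57 to 1.76 for Blvrb and from 1.26 to 2.16 for Hmox1.

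Almost every cell carried both transcripts. After each cell was thinned to 339000 fragments, which kept 1250 cells, Hmox1 was found in 96.4% ± 2.17 (SD, n = 2 mice) of IL4+IL13 cells and 98.5% ± 0.686 of TNF cells, and Blvrb in 96.2% ± 2.40 and 98.7% ± 0.455. Unthinned, Hmox1 was in 97.0% and 99.3% of cells and Blvrb in 97.06% and 98.996%. Of TNF cells, 72.9% in mouse 1 and 72.5% in mouse 2 were above the median Blvrb level of that mouse's IL4+IL13 cells, and 59.9% and 69.0% were above it for Hmox1.

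Heme transport and synthesis were represented by Slc48a1 and Alas1, and Alas1 had the largest fold change of the 9 genes. Alas1 (chr9:106233455-106248654, minus strand) stood at 55.8 and 56.7 CPM with IL4+IL13 and at 328 and 216 CPM with TNF. The IL4+IL13 sums of the 2 mice nearly coincided, and both TNF sums were several-fold above them. Its log2 fold change was 2.27 (SE 0.25), a 4.84-fold difference, with an edgeR adjusted p of 0.150, and with the block it was 2.24 (SE 0.18) and passed at 0.0087. On single plates TNF cells held 3.40 to 6.70 times the level of IL4+IL13 cells.

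Alas1 differed both in how many cells carried it and in how much they carried. In thinned cells, at least 1 fragment was found with IL4+IL13 in 71.1% of cells in mouse 1 (exact 95% binomial interval 65.9 to 75.9) and in 63.8% in mouse 2 (58.1 to 69.1). With TNF these shares were 94.1% (90.8 to 96.4) and 89.5% (85.6 to 92.7), and the intervals, which cover counting error only, do not meet. Without thinning, the shares of cells with a fragment averaged 70.7% with IL4+IL13 and 92.8% with TNF.
The median cell held 12.1 and 3.20 CPM with IL4+IL13 and 161 and 105.6 CPM with TNF. Of TNF cells, 87.3% and 83.7% lay above the IL4+IL13 median, and 51.9% and 36.4% lay above the 90th percentile of IL4+IL13 cells. The top 5% of cells held 34.8% and 38.8% of all Alas1 CPM with IL4+IL13 and 25.6% and 26.7% with TNF, so the transcript was less concentrated in few cells when TNF was present.

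Slc48a1 (chr15:97778520-97792692, plus strand) stood at 235 and 191 CPM with IL4+IL13 and at 369 and 240 CPM with TNF. Both mice were higher with TNF, but the TNF sum of mouse 2 was close to the IL4+IL13 sum of mouse 1, and the plates overlapped. The log2 fold change was 0.51 (SE 0.26), with an edgeR adjusted p of 0.725, or 0.0949 with the block. Hdac7 overlaps Slc48a1 on the opposite strand and the counting ignored strand. The row of Hdac7 held 3616 fragments in all beside 174647 for Slc48a1.

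**Figure D3:**
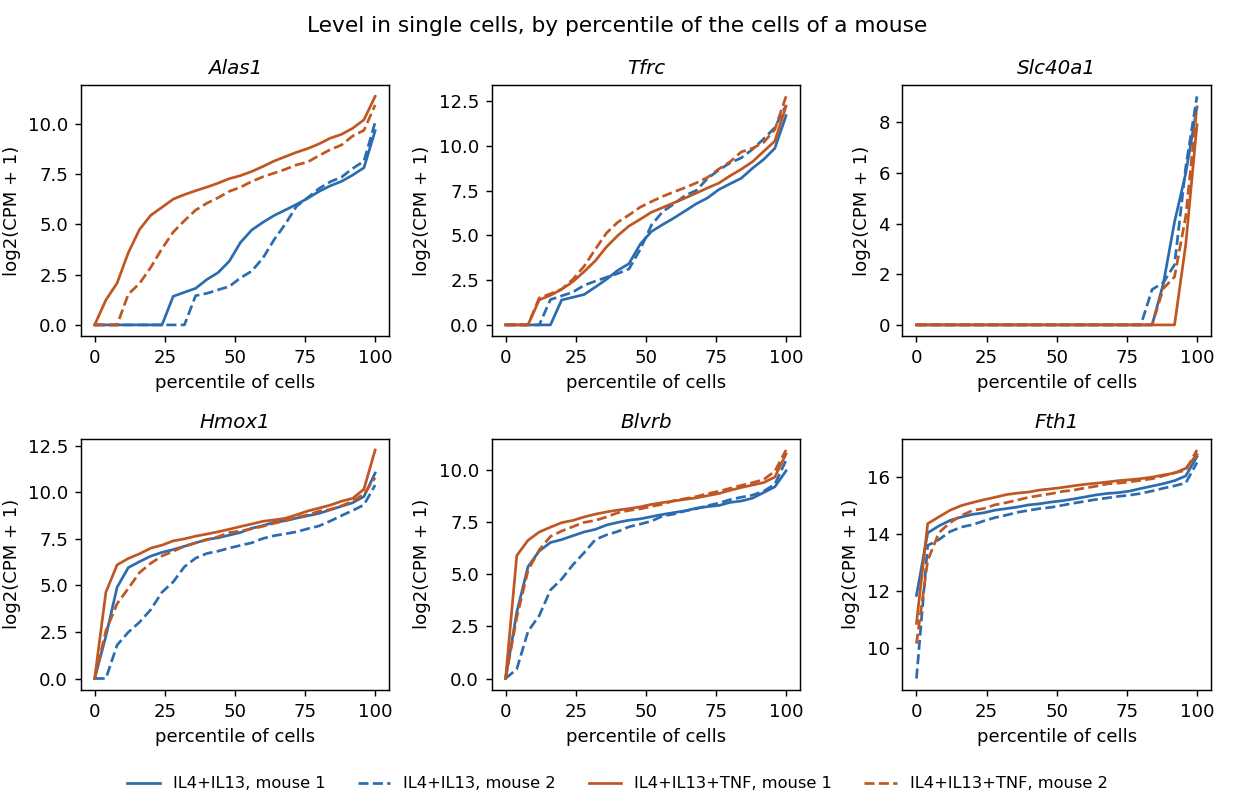
Level in single cells, as log2(CPM + 1), against the percentile of cells, with 1 line per mouse and treatment. The panels show Alas1, Tfrc, Slc40a1, Hmox1, Blvrb and Fth1. The Alas1 lines of TNF cells lie above those of IL4+IL13 cells at all percentiles where either is above 0. The Slc40a1 lines leave 0 only in the top cells.

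Iron export and uptake were represented by Slc40a1 and Tfrc. Slc40a1 (chr1:45908068-45926523, minus strand) was scarce, at 8.40 and 8.53 CPM with IL4+IL13 and 3.13 and 5.34 CPM with TNF. The sums of the 2 mice did not overlap between treatments, but the plates did, with TNF up to 7.06 CPM and IL4+IL13 down to 6.47 CPM. Within each plate TNF cells were lower, on 4 of 4 plates, at 0.280 to 0.673 of the IL4+IL13 level. The log2 fold change was -0.998 (SE 0.36), with an edgeR adjusted p of 0.578, or 0.118 with the block.
In thinned cells Slc40a1 was found in 13.3% (exact 95% interval 9.80 to 17.4) and 13.9% (10.3 to 18.3) of IL4+IL13 cells and in 5.94% (3.56 to 9.23) and 12.4% (8.94 to 16.6) of TNF cells. The shares before thinning were 14.3% and 18.02% with IL4+IL13 and 6.05% and 15.2% with TNF. The lower share was thus seen in mouse 1, while in mouse 2 the intervals overlap, and on plate 4 the share was 11.1% with IL4+IL13 and 15.9% with TNF. From 84.5% to 99.3% of the Slc40a1 signal came from the top 5% of cells, so the sums rest on few cells.

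Tfrc (chr16:32608920-32632794, plus strand) had the least settled direction. It stood at 269 and 338 CPM with IL4+IL13 and at 240 and 363 CPM with TNF, and the log2 fold change was -0.01 (SE 0.26), with an edgeR adjusted p of 0.998, or 0.912 with the block. The treatments overlapped, and TNF cells were higher on plates 2 and 5 and lower on plates 3 and 4.
The deepest cell, an IL4+IL13 cell of mouse 1 on plate 3 with 6122892 fragments, held 41.4% of all Tfrc fragments of its sum, at 3316 CPM. Without that cell the IL4+IL13 sum of mouse 1 was 163 CPM, plate 3 went from 382 to 177 CPM, and the log2 fold change of mouse 1 went from -0.16 to 0.56. The fitted log2 fold change without it was 0.27 (SE 0.41), with an edgeR adjusted p of 0.936, or 0.33 (SE 0.14) and 0.238 with the block. The cell held at most 3.19% of the fragments of any of the other 8 genes.

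Counted by cells, Tfrc was more frequent with TNF in each mouse, where TNF cells also had more genes detected. In thinned cells it was found in 77.1% (exact 95% interval 72.2 to 81.5) and 80.9% (76.1 to 85.1) of IL4+IL13 cells and in 83.5% (78.8 to 87.5) and 87.9% (83.7 to 91.3) of TNF cells, with overlapping intervals. Unthinned shares averaged 83.6% and 90.8%. The median cell held 27.5 and 27.8 CPM with IL4+IL13 and 70.7 and 102.8 CPM with TNF. At the 90th percentile the ratio of TNF over IL4+IL13 cells was 1.33 in mouse 1 and 0.978 in mouse 2. The top 5% of cells held 37.1% to 43.3% of the Tfrc signal, and the medians differed more than the sums. Cells with both Slc40a1 and Tfrc made up 12.05%, 11.97%, 4.95% and 10.5% of cells in IL4+IL13 mouse 1 and 2 and TNF mouse 1 and 2. Independent detection would give 10.2%, 11.3%, 4.96% and 10.9%.

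Slc11a1 (chr1:74375195-74386062, plus strand), the phagosomal metal transporter, stood at 126 and 142 CPM with IL4+IL13 and at 214 and 183 CPM with TNF. The treatments did not overlap in mice or plates, and the ratio on single plates ran from 1.20 to 1.81. The log2 fold change was 0.57 (SE 0.18), with an edgeR adjusted p of 0.494, or 0.0896 with the block. In thinned cells it was found in 87.3% ± 1.31 (SD, n = 2 mice) of IL4+IL13 cells and 92.9% ± 1.11 of TNF cells, and without thinning in 88.4% and 93.8%. The pseudogene Gm4829, whose level followed Slc11a1 across cells more closely than that of any other gene, is listed with the co-expression below. Whether its row takes reads of Slc11a1 was not tested, so the level and fold change of Slc11a1 carry that doubt.

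The ferritin chains were among the most abundant transcripts. Per kilobase of annotated exon, Fth1 ranked 2 of 17034 genes with IL4+IL13 and 3 with TNF, and Ftl1 ranked 8 and 7. Both were found in 100% of thinned cells. Fth1 (chr19:9980598-9985098, plus strand) stood at 37326 and 32266 CPM with IL4+IL13 and at 52210 and 45929 CPM with TNF. Ftl1 (chr7:45457944-45459884, minus strand) stood at 7800 and 6722 CPM with IL4+IL13 and at 8348 and 7448 CPM with TNF.
Fth1 did not overlap between treatments in mice or plates, whereas the Ftl1 sums overlapped. The log2 fold change of Fth1 was 0.50 (SE 0.12), a 1.41-fold difference, with an edgeR adjusted p of 0.362, and with the block it was 0.50 (SE 0.04) and passed at 0.00798. That of Ftl1 was 0.12 (SE 0.13), with an edgeR adjusted p of 0.917, or 0.277 with the block. Fth1 fold changes on single plates ran from 1.31 to 1.496 and those of Ftl1 from 1.05 to 1.13.

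The balance of the chains moved with Fth1. Per length, the log2 ratio of Fth1 over Ftl1 in the sums was 0.89 in both mice with IL4+IL13 and 1.27 and 1.25 with TNF. Together the chains took 4.63% and 4.01% of all fragments with IL4+IL13 and 5.76% and 5.19% with TNF. Of TNF cells, 77.8% and 73.6% were above the Fth1 median of IL4+IL13 cells, and 50.1% and 51.3% were above it for Ftl1. Both genes have processed copies elsewhere in the genome that split uniquely mapped reads, so their levels are uncertain. The copy Ftl1-ps1 held 3280 CPM with IL4+IL13 and 3615 CPM with TNF, Ftl2-ps held 1248 and 1349, and Fth-ps3 held 162 and 226.

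By level per length, mean FPKM with IL4+IL13 and with TNF was 10030.5 and 14145 for Fth1, 5419 and 5894 for Ftl1, 135 and 206 for Hmox1, and 79.9 and 133 for Blvrb. Next came Slc48a1 (77.4 and 111), Tfrc (49.0 and 48.8), Slc11a1 (36.1 and 53.6), Alas1 (9.11 and 44.1) and Slc40a1 (0.941 and 0.471). In each treatment Blvrb and Slc48a1 were closer than the larger of their SDs over the 2 mice, and Tfrc, Slc11a1 and Alas1 were likewise close in TNF cells. In rank, Alas1 stood at 5166 of 17034 genes with IL4+IL13 and 1633 with TNF.

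Since treatment followed plate rows, the rows next to the border were compared. Rows I and J with TNF were set against rows G and H without it, by mean CPM per cell. Over the 4 plates the ratio ran from 2.65 to 5.48 for Alas1, 1.30 to 1.71 for Blvrb and 1.22 to 1.33 for Fth1. For Ftl1 it ran from 0.877 to 1.03. It was above 1 on 4 of 4 plates for Hmox1 (1.15 to 2.02) and Slc11a1 (1.03 to 1.57) as well, on 3 for Slc48a1 (0.850 to 1.68) and Tfrc (0.467 to 1.66), and on 2 for Slc40a1 (0.412 to 2.73). Within TNF cells the level of Slc40a1 went down with the row on 4 of 4 plates, with rank correlations of -0.23 to -0.15. Such correlations were as large for the ferritin chains on some plates, but of either sign. For Fth1 they ran from -0.03 to 0.26 in TNF cells and from -0.23 to 0.12 in IL4+IL13 cells. For Ftl1 they ran from -0.07 to 0.32 in TNF cells and from -0.19 to 0.13 in IL4+IL13 cells. The median share of spike-in fragments was 0.0444% and 0.0675% with IL4+IL13 and 0.0413% and 0.0549% with TNF, and its part in the results was not tested. In sums over many cells, fewer cells with a transcript and less of it per cell cannot be told apart, which is why shares and medians stand beside the sums.

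A wider list of 72 genes of iron and heme metabolism, none of them among the 9, had 70 genes in the table and 56 that were tested. Without pairing, edgeR called 0 of the 56, and at an unadjusted p under 0.05 there were 7 higher and 2 lower, beside 3.68% and 4.43% of all genes. DESeq2 called 4 higher and 2 lower, beside 1.79% and 1.72% of all genes. With the block edgeR called 2 higher and 2 lower, beside 1.94% and 1.88%. The median log2 fold change of the list was 0.05, beside 0.00 for all genes tested, and 33 of the 56 were above 0.
The 4 genes called with the block were Cd163, Trf, Slc11a2 and Hp. Cd163, the receptor for hemoglobin bound to haptoglobin, stood at 19.2 and 21.1 CPM with IL4+IL13 and 6.04 and 6.66 CPM with TNF, a log2 fold change of -1.66 (SE 0.23) with an edgeR adjusted p of 0.197, or 0.0184 with the block. Trf, transferrin, stood at 58.0 and 71.5 CPM and at 24.7 and 29.2 CPM, with a log2 fold change of -1.26 (SE 0.22) and an edgeR adjusted p of 0.232, or 0.0137 with the block. Neither gene had overlapping treatments, and TNF cells held the lower values.
Slc11a2, the divalent metal transporter DMT1, stood at 39.1 and 34.6 CPM with IL4+IL13 and at 88.2 and 62.6 CPM with TNF, and was higher with the block (edgeR log2 fold change 1.01, SE 0.14, adjusted p 0.0272). Hp, haptoglobin, was near 0 with IL4+IL13 (0 and 0.0828 CPM) and at 0.603 and 5.33 CPM with TNF, with an edgeR adjusted p of 0.0146 with the block, and no fold is given against such a level.

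Other enzymes of heme synthesis did not pass. Of Alad, Uros, Urod, Cpox, Ppox and Fech, 0 of 6 passed either edgeR fit or DESeq2, 0 had an unadjusted p under 0.05 in the unpaired edgeR fit, and their log2 fold changes in that fit lay between -0.18 and 0.18. Urod, the most abundant of these per length, stood at 56.7 and 48.3 CPM with IL4+IL13 and at 56.1 and 44.3 CPM with TNF, and Alad at 24.9 and 13.4 CPM and then 26.4 and 17.03 CPM. The remaining enzymes of heme breakdown, Hmox2 (184 and 113, then 136 and 98.1 CPM) and Blvra (259 and 200, then 242 and 190 CPM), also passed in neither edgeR fit. Each stood lower with TNF in both mice, in contrast to Hmox1 and Blvrb, though that contrast was not tested.

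Among heme carriers besides Hp, 0 of 7 passed either edgeR fit, and the most abundant were Pgrmc1 (89.4 and 71.1, then 88.8 and 61.5 CPM), the heme exporter Flvcr1 (69.3 and 110.3, then 62.0 and 71.5) and Pgrmc2 (25.8 and 28.2, then 22.1 and 21.7). The iron chaperones Pcbp1 (249 and 284, then 287 and 328 CPM) and Pcbp2 (132 and 155, then 119 and 151) and the ferritin-degradation receptor Ncoa4 (29.7 and 40.6, then 29.8 and 30.5) did not pass. Sensing genes passed in neither edgeR fit, with Hfe at 137 and 175 CPM and then 77.9 and 119.7 CPM (edgeR adjusted p 0.050001 with the block, just outside), the iron regulatory proteins Aco1 (64.0 and 67.9, then 74.9 and 75.1) and Ireb2 (41.0 and 71.3, then 56.8 and 63.0).
The ferroxidase Cp, the only export gene tested, stood at 1.32 and 0.550 CPM and at 5.06 and 20.2 CPM with TNF, with an edgeR adjusted p of 0.0964 with the block and 3.33e-06 by DESeq2 without it. Of 16 genes of mitochondrial iron and iron-sulfur clusters 0 passed either edgeR fit, Cisd1 (63.5 and 57.9, then 87.2 and 85.2 CPM), Hscb (45.8 and 44.0, then 33.4 and 36.9) and Iscu (71.6 and 68.6, then 78.5 and 95.1) being the most abundant per length. The scavenger receptor Lrp1 (146 and 161, then 134 and 104 CPM) did not pass. Among transcription factors of these genes 0 of 6 passed in either edgeR fit, and DESeq2 without the block called Spic, at 0.455 and 0.959 CPM and then 2.41 and 2.79 CPM (adjusted p 0.0326), named here after its values were seen. Nfe2l2, which encodes NRF2, stood at 287 and 327 CPM and at 406 and 443 CPM (edgeR adjusted p 0.0622 with the block), Bach1, the heme-sensing repressor, at 59.7 and 119.4 CPM and at 43.3 and 71.7 CPM (0.0723), and Mafg at 56.2 and 73.6 CPM and at 60.2 and 74.9 CPM.

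RefSeq promoter windows (GRCm38.p6) of 250 bases before a start site were on hand for 6 of the 9 genes, as 10 windows. Hmox1, Slc48a1 and Slc40a1 had none. The core of the antioxidant response element bound by NRF2 and BACH1, TGACNNNGC on either strand, was in 0 of the 10 and in 10.2% of 32851 windows of all genes. The NF-kB core GGGNNNNTCC was in 1 of the 10, a window of Alas1, and in 16.5% of all windows, and the STAT6 core TTCNNNNGAA was in 1, a window of Blvrb, and in 5.85%. These are matches of letters, and windows of 1 gene can overlap. Sequence beyond 250 bases was not searched, so a count of 0 does not show that a gene lacks the element.

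Across single cells the genes were weakly related, apart from the ferritin chains. The rank correlation of CPM was computed within each mouse and treatment over 333 to 357 cells that share library preparation and depth, and averaged over the 4 sets. It is a description, with no test. Over the 36 pairs the median was 0.11 and the range -0.09 (Tfrc with Fth1) to 0.55 (Fth1 with Ftl1). Fth1 and Ftl1 correlated at 0.50 and 0.55 with IL4+IL13 and 0.52 and 0.64 with TNF. Next came Blvrb with Ftl1 (mean 0.27), Blvrb with Fth1 (0.26) and Slc48a1 with Fth1 (0.21). Of the 36 pairs, 22 were above 0 in all 4 sets, and 13 were above 0 on every plate in both treatments.

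**Figure D4:**
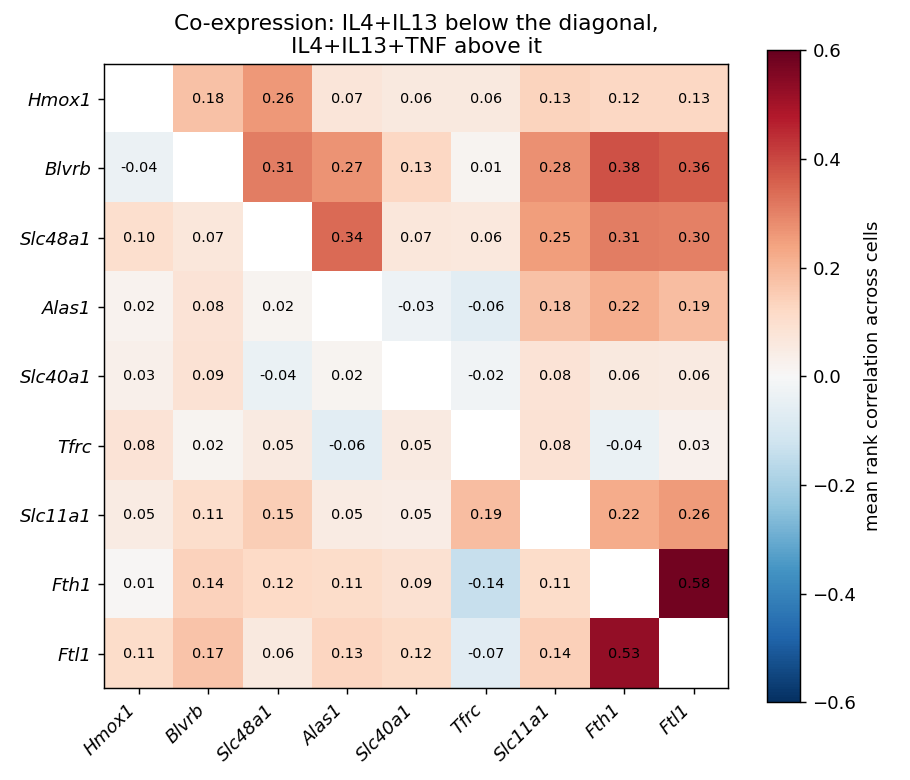
Mean rank correlation across cells for each pair of the 9 genes, with IL4+IL13 cells below the diagonal and IL4+IL13+TNF cells above it. The pair of ferritin chains is the strongest on both sides, Slc48a1 with Alas1 goes from 0.02 to 0.34, and no pair with Tfrc or Slc40a1 goes above 0.19 in either treatment.

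The median over pairs was 0.08 and 0.07 in the IL4+IL13 cells of the 2 mice and 0.12 and 0.15 in their TNF cells. In 18 of the 36 pairs both TNF values were above both IL4+IL13 values, and in 3 pairs both were below. The same count was not made for pairs of other genes, so these counts have no background. The 36 pairs also share genes and are not independent of each other. The pair of Slc48a1 and Alas1 stood at 0.00 and 0.03 with IL4+IL13 and at 0.39 and 0.29 with TNF. The heme breakdown genes Hmox1 and Blvrb stood at 0.00 and -0.08 and then at 0.14 and 0.21. Alas1 was at 0 in many IL4+IL13 cells, which limits any correlation there, and whether the pairs differ between treatments was not tested.

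Most other genes were unrelated to the 9. Over the 10648 or 10649 other genes found in at least 25% of cells, the median correlation with each of the 9 was within 0.02 of 0, and the 99th percentile lay between 0.09 (Slc40a1) and 0.18 (Fth1). Among all those genes, Ftl1 ranked 6 and Fth1 ranked 7 for likeness to Blvrb, and Slc48a1 ranked 5 for likeness to Hmox1 (0.18, range 0.00 to 0.27 over the 4 sets). Other partners of Hmox1 ranked lower, with Blvrb at 503, Fth1 at 642 and Alas1 at 1483. The 3 genes most like each of the 9 were then listed.
For the ferritin chains and Slc11a1 the closest rows were annotated pseudogenes, except that Ftl1-ps1 is annotated as protein coding: Gm6977 (0.99), Fth-ps3 (0.94) and Fth-ps2 (0.74) for Fth1, Ftl1-ps1 (0.96), Ftl1-ps2 (0.85) and Ftl2-ps (0.84) for Ftl1, and Gm4829 (0.67), Gm7204 (0.23) and Gm21399 (0.22) for Slc11a1. Gm7204 and Gm21399 also led for Blvrb (0.36 and 0.35), before the peroxiredoxin Prdx1 (0.34), and for Slc48a1 (0.28 and 0.28), before Creg1 (0.28). Those nearest to Alas1 were Anxa1 (0.41, range 0.21 to 0.58 over the 4 sets), Creg1 (0.36) and the pseudogene Cd63-ps (0.34).
The closest to Tfrc were Mrc1, the mannose receptor (0.34, range 0.29 to 0.40), Ap2m1, a subunit of the clathrin adaptor (0.29), and the complement gene C1qc (0.29). Hmox1 was nearest to the C5a receptor C5ar1 (0.22), Clec4d (0.19) and Cd36 (0.18). Slc40a1 was nearest to Tmem154 (0.16), Map1b (0.13) and Taf9b (0.13), values that are weak in so sparse a gene.

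The genes also divided by which macrophage programs they went with. Scores were the mean log2(CPM + 1) of short gene lists, without any of the 9 genes, and were correlated with each gene in the same 4 sets. Fth1 went down as the M2 score (Retnla, Clec10a, Mgl2, Mrc1, Il10 and Apoe) went up, with a mean correlation of -0.35 and a range of -0.38 to -0.34 over the sets. It went up with the Gpnmb-high score of lipid-laden macrophages (0.32) and the score of NRF2 targets (0.28), and down with the cycling score (-0.21). Ftl1 resembled it for Gpnmb (0.29) and NRF2 targets (0.25), with -0.17 for the M2 score.
Alas1 went with the Gpnmb-high score (0.31, range 0.23 to 0.42) and against the M2 score (-0.26) and the C1q-high score (-0.19). Blvrb went with NRF2 targets (0.27), at 0.13 and 0.15 in IL4+IL13 cells and 0.36 and 0.44 in TNF cells, and Slc48a1 with NRF2 targets (0.25) and the Gpnmb-high score (0.23). Tfrc pointed the other way, up with the C1q-high score (0.31, range 0.23 to 0.42) and the M2 score (0.23). Its nearest genes Mrc1 and C1qc are in those lists, as Prdx1, near Blvrb, is in that of NRF2 targets.
Hmox1, Slc11a1 and Slc40a1 had no mean correlation beyond 0.15 in size with any of the 9 scores. The M2 score itself was lower with TNF (4.72 and 5.58 with IL4+IL13, 3.33 and 4.13 with TNF) and the inflammatory score was higher (1.73 and 1.63, then 3.45 and 3.06), on the log2(CPM + 1) scale. Correlations within a treatment do not carry that shift.

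**Figure D5:**
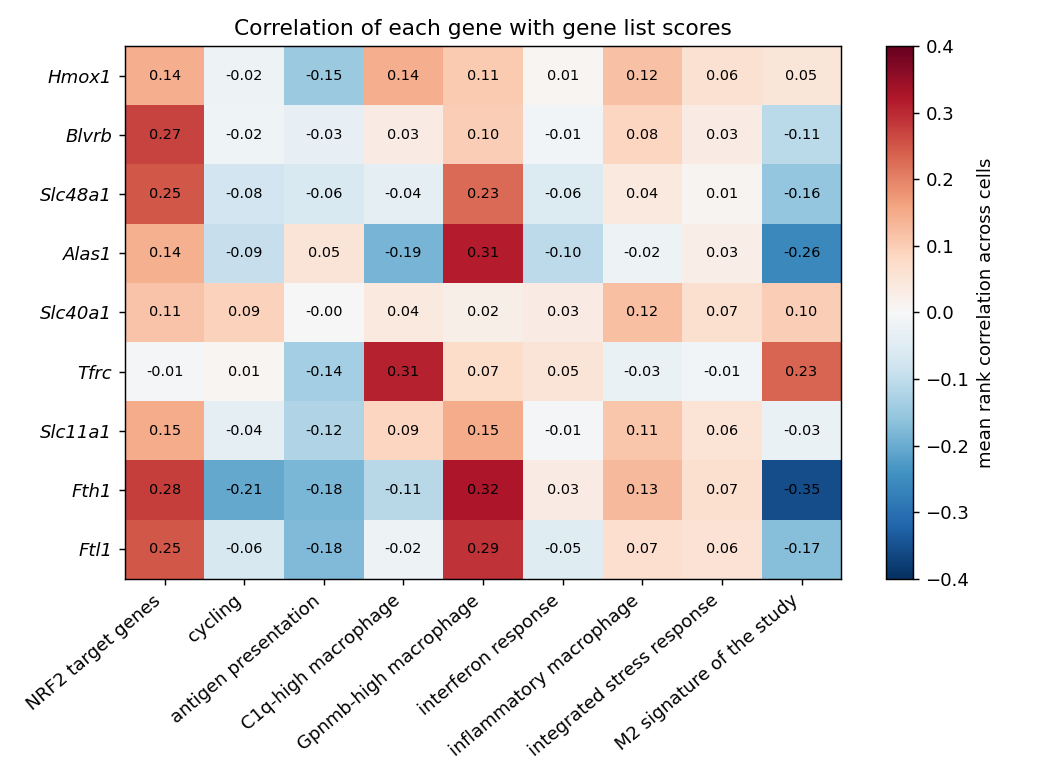
Mean rank correlation across cells of each of the 9 genes with 9 gene list scores, averaged over the 4 sets of mouse and treatment. Fth1, Ftl1, Alas1, Blvrb and Slc48a1 go with NRF2 targets or the Gpnmb-high score, Fth1 has the lowest value with the M2 score (-0.35), and Tfrc goes with the C1q-high score (0.31).

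Calls shifted with the test more than the values did. Added after the data were seen, DESeq2 with the block called 7 of the 9 genes, all but Tfrc and Ftl1, against 12.4% of all genes. Cells thinned to 339000 fragments gave 4 of 9 with the edgeR block, Hmox1 joining at an adjusted p of 0.0437, against 5.59%. The block without the deepest cell gave the same 3 genes against 4.20%. Mean CPM per cell, tested by limma with the block, gave Alas1, Blvrb and Hmox1 against 7.04%, and Fth1 did not pass (adjusted p 0.285).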

How the data were processed

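Smart-seq2 libraries of single BMDMs were analysed from the deposited table of fragment counts per gene and cell. Per the labels and the study's methods, the authors sorted live cells, sequenced paired 50-base reads, converted them with bcl2fastq 2.19.1, aligned to mm10 with gsnap, and counted uniquely mapped fragments over Ensembl genes with featureCounts 1.6.3, without strand. No molecular identifiers were used, so duplicates of amplification stay in the counts. Unique mapping drops or splits reads of genes with near-identical copies, which touches the ferritins. Whether it also touches Slc11a1 was not tested.

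Treatment, mouse and plate came from the labels. Wells more than 3 median absolute deviations below their plate's median in log fragments or genes, or as far above in mitochondrial or spike-in share, were left out (138 of 1524). In addition 4 samples had no group and 11 columns of the table matched no sample, and none of these were used. The 92 spike-in rows stayed out of totals. Cells differed widely in depth (4607 to 6122892 fragments per well), so shares were taken after thinning to 339000 fragments, the 10th percentile, with exact binomial 95% intervals that cover counting error only.

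The 4 sums (2 mice by 2 treatments) entered the quasi-likelihood test of edgeR 4.0.16 (TMM, R 4.3.3) on treatment, for genes in at least 5% of cells of either treatment, with Benjamini-Hochberg adjustment. The SE was the log2 fold change divided by the square root of F. The mouse as replicate block, DESeq2 1.42.0, limma 3.58.1 on mean CPM, other filters and leaving out each sum were alternatives. Samples of both treatments carry the same number, 1 or 2, in their titles and share plates, and the series' design names 2 mice, so a number was taken to be a mouse, which no label states outright. The deviations of same-numbered sums from the group means correlated at 0.57. FPKM used the exon length given for each gene in the deposited count table.

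The genes named are the 9, genes of the wider list called in the main or blocked edgeR fit and otherwise up to 3 per sub-list with the highest level, the 3 genes most correlated with each of the 9, and ferritin pseudogenes. One gene of the wider list is not reported here. Members and lists were chosen with earlier results of these data known. Whether the treatments of a mouse were separate cultures is not stated, so the spread between cultures was not measured. Without the block, p-values measure the spread between 2 animals. The block takes out that spread, and p-values with it measure how the treatment difference varied between the 2 animals. Few sums are left to estimate that variation, so the small SEs with the block are themselves uncertain.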

Additional observations from a re-analysis of the deposited data

How the results depend on the processing

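With 2 mice the calls depend on pairing, and a missed threshold does not show that a gene did not differ. Of the 9 genes, 0 were called by edgeR without the block, with the replicate block 3, with DESeq2 2, with DESeq2 and the block 7, after thinning with the block 4, without the deepest cell with the block 3, and by limma on mean CPM with the block 3. For the wider list the counts in that order were 0, 4, 6, 13, 6, 5 and 6, and for all genes 1, 651, 598, 2119, 953, 715 and 1200, with 2 after thinning alone. The fits that combine settings with the block, and the fits without the deepest cell, were chosen after seeing the data. Leaving out 1 sum at a time gave 0 of the 9, 0 of the wider list and 4 to 30 of all genes, the lone sum being assumed to vary like the other group. The most, 30, came without IL4+IL13+TNF replicate 1, and without IL4+IL13 replicate 1, IL4+IL13 replicate 2 and IL4+IL13+TNF replicate 2 there were 4, 6 and 8. Taking the replicate number as the mouse, pairing in the main edgeR fit changed the call of Alas1, Blvrb and Fth1. In DESeq2 pairing added Hmox1, Slc48a1, Slc40a1, Slc11a1 and Fth1. After thinning, and in limma on mean CPM, Hmox1 was among the genes it added, and Fth1 stayed uncalled in limma.

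Tfrc changed sign from -0.01 to 0.26 (limma on mean CPM, with or without the block), 0.30 (thinned), 0.36 (thinned, block), 0.27 (without the deepest cell), 0.33 (that with the block), 0.17 (without IL4+IL13 replicate 2) and 0.26 (without IL4+IL13+TNF replicate 1). Weighting cells alike or thinning them limits what that deepest cell adds. Over the fits leaving out 1 sum it ran from -0.34 to 0.26, Hmox1 from 0.32 (without IL4+IL13 replicate 2) to 0.99 (without IL4+IL13 replicate 1), Slc48a1 from 0.17 (without IL4+IL13+TNF replicate 1) to 0.79 (without IL4+IL13+TNF replicate 2), Slc40a1 from -0.66 to -1.43 (without the same sums), and Ftl1 from 0.02 (without IL4+IL13 replicate 2) to 0.23 (without IL4+IL13 replicate 1). Of 221 fold changes under alternatives, 168 kept direction and side of the threshold, 45 passed it newly, and 8, all of Tfrc, turned. The difference in the share of cells kept within 1 SD in 24 of 36 cases. These include all cases of Fth1 and Ftl1, which were found in every cell and could not move. Asking for 5 fragments moved the share difference of Alas1 from 24.4 to 38.6 percentage points. Median co-expression stayed at 0.10 to 0.14, and the median size of the score correlations at 0.077 to 0.098. Slc40a1, at under 9 CPM, rests on few cells.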
